A study of Homo sapiens with 6 samples.

Results

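The 38 genes described here drive entry into mitosis and the division that follows. They were taken by symbol from the 16910 gene rows of the deposited table, as a list of known mitosis genes; no measured value entered the rule, but the list was drawn up with earlier results of these data known. They comprise 9 kinase, phosphatase and cyclin genes, 9 kinetochore and spindle checkpoint genes, 8 genes of spindle motors and spindle proteins, 5 cytokinesis genes, 3 genes of anaphase ubiquitination and securin, and 4 genes of chromosome proteins and transcription factors. All 38 passed the filter on low counts.

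Cells pass from G2 into mitosis when the kinase CDK1, bound to A- and B-type cyclins, is freed of inhibitory phosphate by the CDC25 phosphatases. Kinetochores then attach chromosomes to a spindle built by kinesin motors, the checkpoint delays anaphase until all are attached, and the anaphase-promoting complex with CDC20 destroys securin and cyclin B. Most of these genes are transcribed late in the cell cycle, under the MuvB complexes, B-MYB and FOXM1, so that their mRNA level in a culture also tracks how many of its cells are in G2 and mitosis. In these bulk libraries, fewer cells in those phases and less of each mRNA per cell cannot be told apart.

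TOV21G is a human line from ovarian clear cell carcinoma, and the series title pairs GYS1, the muscle-type glycogen synthase, with p53. The mRNA-seq libraries form 3 groups of 2. siGYS1 carries the genotype label of a GYS1 knockdown and sip53 that of a p53 knockdown, and NC is labelled WT and read here as the control siRNA. No source used here gives the sequences, doses or times of the siRNAs, or says whether the 2 libraries of a group came from separate cultures, so p-values measure only the spread between these libraries.

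Library totals lay between 17425000 and 18097337 counts, and 13235 genes were tested. The 38 genes had from 84 counts (CENPE) to 9045 counts (MKI67) in a library. GYS1 stood at 1.69 and 1.67 FPKM in the siGYS1 libraries and at 30.4 and 31.4 FPKM in the sip53 libraries, against 28.6 and 27.3 FPKM in the NC libraries. With siGYS1 it was at 6.29% of NC (log2 fold change -3.99, SE 0.11, adjusted p = 1.28e-07). Of 11 clear cell carcinoma and epithelial markers, 8 were at or above 1 FPKM in every library, among them PAX8 at 144 to 165 FPKM. NAPSA and GPX3 stayed below 1 FPKM in every library. The 11 summed to 3294.5 to 3615.7 FPKM with siGYS1 and 1269.1 to 1407.8 FPKM with sip53, against 4198.5 to 4400.3 FPKM with NC. SPP1 made up most of the siGYS1 and NC sums, at 2676 and 2938 FPKM with siGYS1 and 3396 and 3578 FPKM with NC. With sip53 it stood at 726 and 612 FPKM. The 10 others summed to 619 to 678 FPKM with siGYS1 and 657 to 682 FPKM with sip53, against 802 to 822 FPKM with NC. The part of these shifts in the results was not tested.

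With sip53, nearly all of the mitosis genes fell. Of the 38, 34 fell, 1 rose (CDC25B) and 3 did not pass the test (CENPE, ASPM and PTTG1), beside 26.5% of all tested genes called lower and 23.4% called higher. The median log2 fold change of the 38 was -0.56, or 68.0% of NC, against -0.03 over all genes tested. A change counts as called at an adjusted p below 0.05 from edgeR's quasi-likelihood test, with Benjamini-Hochberg adjustment over all tested genes, and all fold changes are on the log2 scale. In log2 CPM, which is counts scaled by TMM library size, both sip53 libraries lay below both NC libraries for 36 of the 38, beside 41.3% of all genes, and above them for 1, beside 37.3%. The largest falls were in HMMR (-2.01), CENPF (-1.57), MKI67 (-1.54), TOP2A (-1.07) and CDC20 (-0.999).

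With siGYS1 the same genes were mostly at or slightly above the NC level. Of the 38, 10 rose, 0 fell and 28 did not pass, beside 10.4% of all tested genes called higher and 9.24% called lower. The genes that rose were CCNA2, CDC25B, TTK, CENPE, CENPF, ASPM, KIF23, ANLN, ECT2 and TOP2A. The median log2 fold change of the 38 with siGYS1 was 0.17, against -0.01 over all genes tested, and both siGYS1 libraries lay above both NC libraries for 27 of the 38, beside 28.5% of all genes, and below them for 1, beside 30.2%. Only CENPE, ASPM and ANLN were called in each of 15 alternative settings. The count of 10 depended on the fit. It was 3 with only the 2 groups compared, where 1577 genes were called in either direction, against 2602 in the main fit. Leaving out 1 library leaves 1 in its group, and the number called then moved over all genes as well as over the 38. The median log2 fold change of the 38 lay between 0.16 and 0.20 when 1 library was left out.

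Set directly against sip53, the siGYS1 libraries held more of nearly every one of these mRNAs. In this comparison 36 of the 38 were called higher and 0 lower, beside 22.5% of all tested genes called higher and 20.9% called lower, with a median of 0.79 against 0.01 over all genes. Both siGYS1 libraries lay above both sip53 libraries for 36, beside 36.6% of all genes. CDC25B (0.03, SE 0.10, adjusted p = 0.852) and PTTG1 (0.22, SE 0.13, adjusted p = 0.198) did not pass. Both comparisons with NC share the NC libraries, so their values are only set side by side: 7 genes rose with siGYS1 and fell with sip53 (CCNA2, TTK, CENPF, KIF23, ANLN, ECT2 and TOP2A), and 27 fell with sip53 without passing with siGYS1. The share of all tested genes with these joint patterns was not counted, so these numbers only describe the 38.

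**Figure D1:**
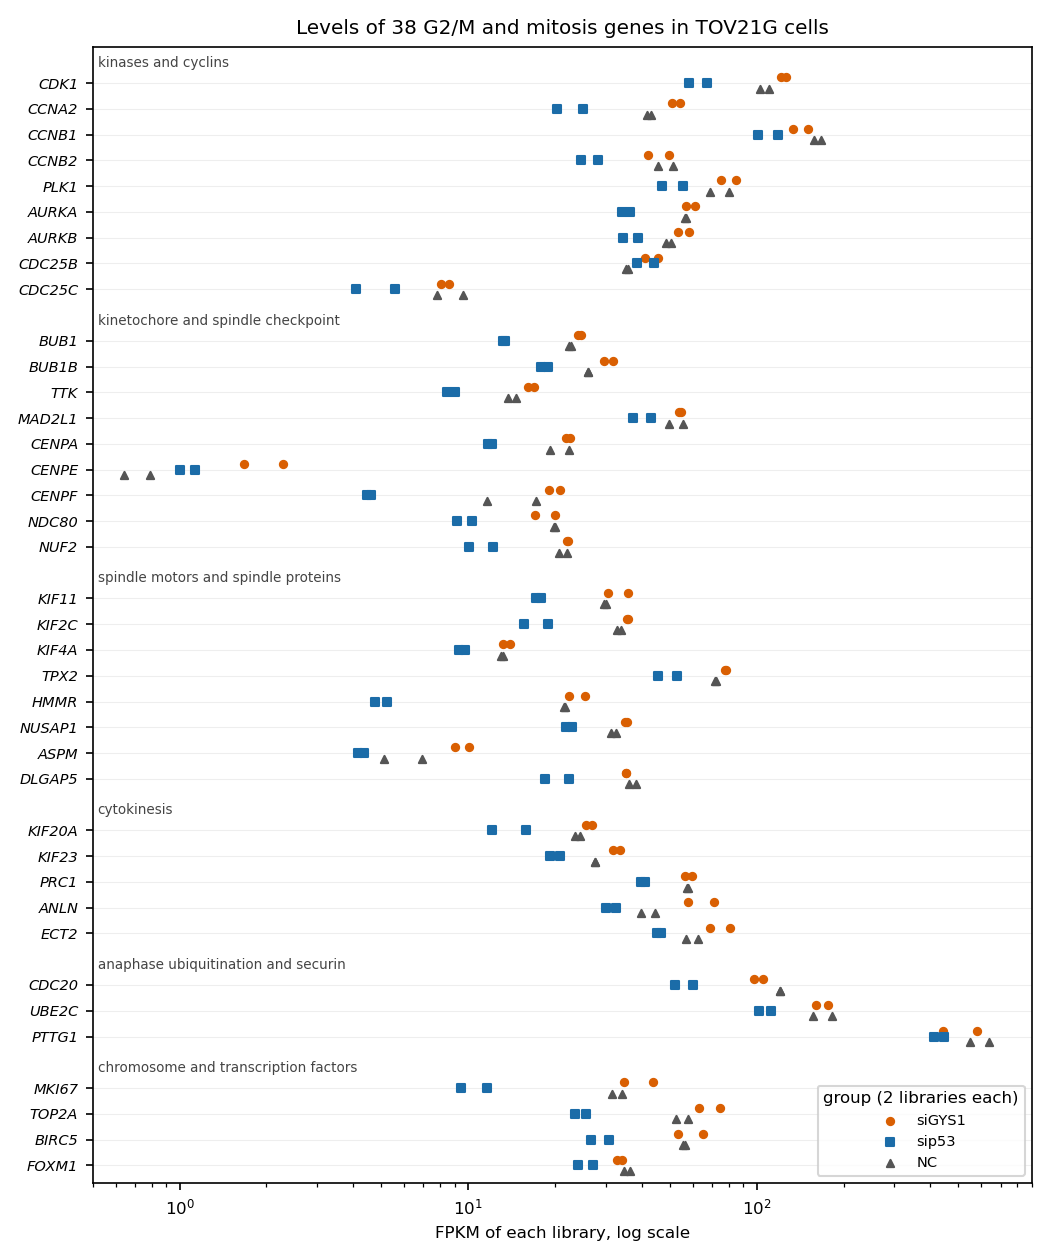
FPKM (log scale) of each of the 38 genes in each of the 6 libraries, with genes grouped by role. For 36 genes both sip53 libraries (squares) lie left of both NC libraries (triangles); CENPE and CDC25B are the exceptions.

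**Figure D2:**
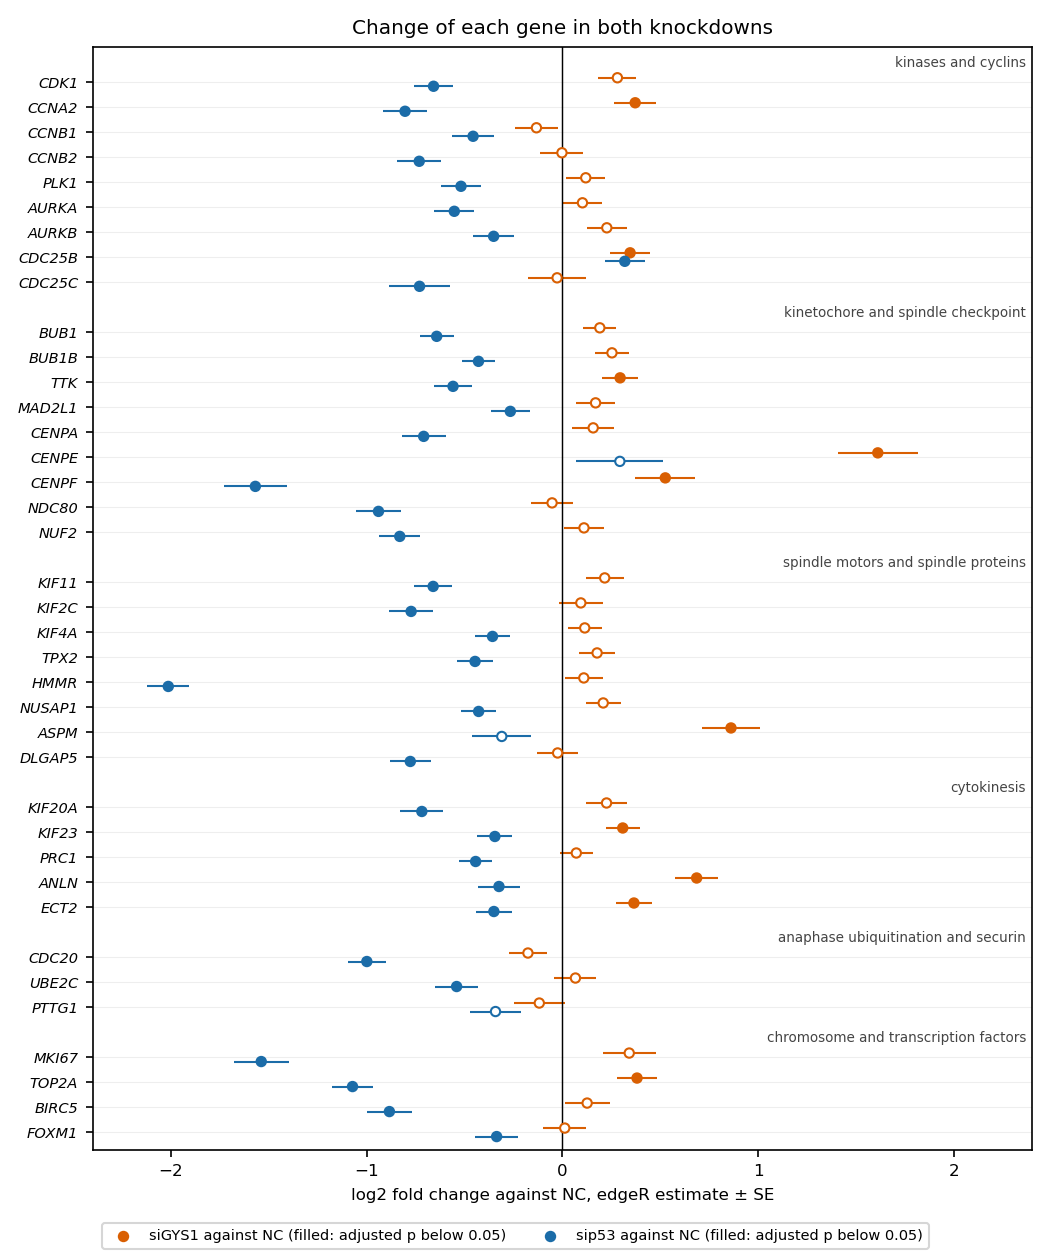
Log2 fold change of each gene against NC with its standard error, for siGYS1 and for sip53, with filled points where the adjusted p is below 0.05. The sip53 points lie left of 0 for all genes except CDC25B and CENPE, and the siGYS1 points cluster between -0.18 and 0.38 apart from CENPE, ASPM, ANLN and CENPF.

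Most of the genes hold promoter motifs of late cell cycle genes. The rule did not use the motifs, but a list of known mitosis genes was likely in advance to be rich in them. Their share therefore only describes the list. The CHR (cell cycle genes homology region), the site at which LIN54 of the MuvB complexes binds, was searched for as TTTGAA or TTCGAA, and the CCAAT box, bound by NF-Y, as CCAAT, each on both strands. RefSeq promoter windows (GRCh38.p14, from 250 bases before the transcription start to 50 after it) matched 32 of the 38 genes. A CHR match was present in 25 of the 32 (78.1%), against 15.3% of the 10438 tested genes with a window, and a CCAAT match in 26 (81.2%) against 43.2%. Both were present in 21 of the 32 (65.6%), against 6.43% of tested genes. A gene counted when any of its windows held the letters, and such a match describes the sequence only. The median log2 fold change with sip53 was -0.66 for the 25 genes with a CHR match and -0.46 for the 7 without. The values overlapped, from -2.01 (HMMR) to 0.32 (CDC25B) with a match and from -0.80 (CCNA2) to 0.29 (CENPE) without. Other forms of the CHR were not searched for, and the difference was not tested.

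To show the arrangement, the 150 bases before the start site are printed for 6 genes, in each role the gene with the largest sip53 change among those whose window holds a CHR. Sequences run 5' to 3' on the strand of the gene, and capitals mark CHR matches and CCAAT matches, the second also as ATTGG on the opposite strand. The stretches are chr15:59104996-59105145 (plus strand) for CCNB2, chr1:214603045-214603194 (plus) for CENPF, chr5:163460482-163460631 (plus) for HMMR, chr15:90994536-90994685 (minus) for PRC1, chr1:43358831-43358980 (plus) for CDC20 and chr10:128126424-128126573 (minus) for MKI67.
CCNB2: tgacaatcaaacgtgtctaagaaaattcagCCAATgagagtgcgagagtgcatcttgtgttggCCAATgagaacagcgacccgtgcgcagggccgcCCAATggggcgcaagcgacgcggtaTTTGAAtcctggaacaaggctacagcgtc
CENPF: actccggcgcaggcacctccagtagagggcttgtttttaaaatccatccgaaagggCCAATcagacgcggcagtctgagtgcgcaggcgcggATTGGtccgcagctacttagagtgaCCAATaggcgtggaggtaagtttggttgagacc
HMMR: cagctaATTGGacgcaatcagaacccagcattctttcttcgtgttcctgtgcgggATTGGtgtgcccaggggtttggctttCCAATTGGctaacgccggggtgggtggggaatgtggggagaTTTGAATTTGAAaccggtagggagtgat
PRC1: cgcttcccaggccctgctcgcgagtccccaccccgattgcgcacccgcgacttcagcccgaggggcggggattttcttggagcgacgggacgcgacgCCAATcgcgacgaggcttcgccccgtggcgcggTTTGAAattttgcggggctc
CDC20: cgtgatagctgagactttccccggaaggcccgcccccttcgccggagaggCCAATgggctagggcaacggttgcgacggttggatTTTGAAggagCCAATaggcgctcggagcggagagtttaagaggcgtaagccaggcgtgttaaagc
MKI67: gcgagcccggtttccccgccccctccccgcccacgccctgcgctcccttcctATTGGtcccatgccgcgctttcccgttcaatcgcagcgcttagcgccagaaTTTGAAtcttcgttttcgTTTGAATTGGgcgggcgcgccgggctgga
In CCNB2 the CHR begins 29 bases before the start site, downstream of the 3 CCAAT boxes printed, and in PRC1 it begins 20 bases before it, downstream of 1. HMMR carries 2 CHR matches end to end, beginning 28 and 22 bases before the start, and a CCAAT box that overlaps another on the opposite strand. MKI67 has CHR matches 47 and 29 bases before the start, and the second shares a base with a CCAAT match on the opposite strand. The stretch of CDC20 holds a CHR 65 bases before the start. That of CENPF holds none, since its match begins at base 41 after the start.

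**Figure D3:**
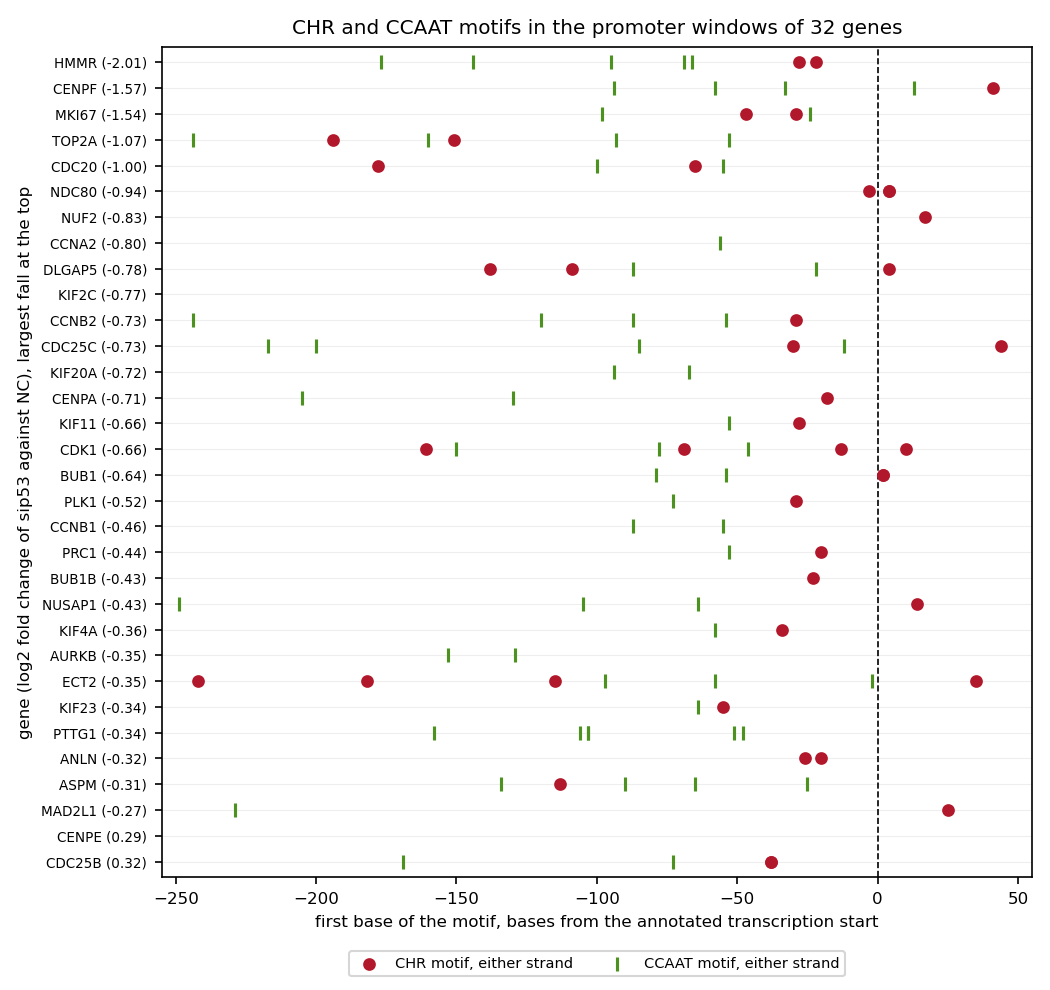
First base of each CHR match (points) and CCAAT match (ticks) relative to the annotated transcription start at 0, for the 32 genes with a promoter window, ordered by their log2 fold change with sip53. CHR matches lie near the start in genes with large falls, such as HMMR, and with small ones, such as ANLN, and CENPE and KIF2C hold neither motif.

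The counts given for each role are to be read beside the shares of all tested genes. Of these, 26.5% were called lower and 23.4% higher with sip53, and 9.24% lower and 10.4% higher with siGYS1. Among kinases, phosphatases and cyclins, 8 of 9 fell with sip53 and 1 rose, with a median of -0.55, while 2 rose with siGYS1 (median 0.12). CDK1, the mitotic kinase itself, was at 127 and 121 FPKM with siGYS1 and at 58.2 and 67.2 FPKM with sip53, against 103 and 111 FPKM with NC. The sip53 libraries were well below the other 4, which did not overlap between siGYS1 and NC either. CDK1 fell by 0.66 with sip53 (SE 0.10, adjusted p = 0.000465), and was at 0.28 with siGYS1 (SE 0.10, adjusted p = 0.0703).

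CCNA2 encodes cyclin A2, which partners CDK2 in S phase and CDK1 in G2. Its level was 54.4 and 50.7 FPKM with siGYS1 and 20.3 and 25.01 FPKM with sip53, against 42.9 and 41.8 FPKM with NC. The 3 groups did not overlap. CCNA2 rose with siGYS1 (0.37, SE 0.11, adjusted p = 0.0388, called in 5 of 15 settings) and fell with sip53 (-0.80, SE 0.11, adjusted p = 0.000275). Cyclins B1 and B2, the mitotic partners of CDK1, fell with sip53, CCNB1 by 0.46 (SE 0.11) and CCNB2 by 0.73 (SE 0.11). CCNB1 stood at 134 and 151 FPKM with siGYS1 and 101 and 119 FPKM with sip53, against 158 and 167 FPKM with NC, so that its siGYS1 libraries lay on the low side of NC (-0.13, SE 0.11, adjusted p = 0.417). CCNB2 stood at 41.9 and 49.7 FPKM with siGYS1, against 45.6 and 51.1 FPKM with NC, which overlap.

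The kinases PLK1, which acts in centrosome maturation and mitotic entry, AURKA, of the spindle poles, and AURKB, of the chromosomal passenger complex, fell with sip53 by 0.52 (SE 0.10), 0.55 (SE 0.10) and 0.35 (SE 0.10). None of these 3 passed with siGYS1, where they were at 0.12, 0.10 and 0.23. AURKB no longer passed with sip53 without either sip53 library or without NC replicate 2.

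CDC25C, a phosphatase that activates CDK1, was at 8.61 and 8.05 FPKM with siGYS1 and 4.10 and 5.58 FPKM with sip53, against 9.58 and 7.79 FPKM with NC. It fell with sip53 (-0.73, SE 0.16, adjusted p = 0.00385), and siGYS1 overlapped NC (-0.03, SE 0.15, adjusted p = 0.917). Its relative CDC25B, which starts CDK1 activation at the centrosome, was the one member called higher in both knockdowns, at 40.9 and 45.6 FPKM with siGYS1 and 38.5 and 44.2 FPKM with sip53, against 35.7 and 35.2 FPKM with NC. The fold changes were 0.35 with siGYS1 (SE 0.10, adjusted p = 0.0429, called in 5 of 15 settings) and 0.32 with sip53 (SE 0.10, adjusted p = 0.0275). The sip53 call of CDC25B ended without either NC library, without sip53 replicate 2 and in 3 other settings.

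Of the 9 kinetochore and spindle checkpoint genes, 8 fell with sip53 (median -0.64) and 3 rose with siGYS1 (median 0.19). CENPF, a large coiled-coil protein of the outer kinetochore that accumulates in G2, was at 20.8 and 19.1 FPKM with siGYS1 and 4.62 and 4.46 FPKM with sip53, against 17.2 and 11.6 FPKM with NC. The sip53 libraries were far below the rest, and the NC libraries differed from each other more than the siGYS1 libraries did. CENPF fell to 33.7% of NC with sip53 (-1.57, SE 0.16, adjusted p = 4.57e-05). With siGYS1 it rose (0.53, SE 0.15, adjusted p = 0.0392), a call that held in 7 of 15 settings and ended without NC replicate 2.

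CENPE, a kinesin of the kinetochore that carries chromosomes to the spindle equator, had the lowest level of the 38 and the largest siGYS1 rise. Its level was 1.67 and 2.29 FPKM with siGYS1 and 1.13 and 1.0 FPKM with sip53, against 0.79 and 0.64 FPKM with NC, from 243 and 344 counts, 125 and 107 counts, and 118 and 84 counts. Both siGYS1 libraries exceeded all others. CENPE rose 3.06-fold with siGYS1 (1.61, SE 0.20, adjusted p = 0.000983), while in sip53 it was at 0.29 (SE 0.22, adjusted p = 0.299). Counts of the 2 NC libraries and of the sip53 libraries overlapped. The transcript length implied by its count, its FPKM and the library total was 8351 and 8354 bases with siGYS1 and 6166 and 5935 bases with sip53, against 8357 and 7252 bases with NC. The highest of these was 1.41 times the lowest, a wider range than for any other member (PLK1 was next at 1.15), so the FPKM of CENPE were not computed over one length, and they set sip53 above NC where the counts overlap.

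The outer kinetochore genes NDC80 and NUF2, whose proteins form the microtubule-binding complex, fell with sip53 by 0.94 (SE 0.11, adjusted p = 0.000121) and 0.83 (SE 0.11, adjusted p = 0.000167). NDC80 was at 19.9 and 17.01 FPKM with siGYS1 and 9.17 and 10.3 FPKM with sip53, against 19.9 and 20.03 FPKM with NC. Here siGYS1 overlapped NC on its low side (-0.05, SE 0.11, adjusted p = 0.761). CENPA, the histone H3 variant that marks the centromere, fell by 0.71 with sip53 (SE 0.11, adjusted p = 0.000671). Its exons overlap those of SLC35F6 on the same strand, whose counts were 1239 and 1376 with sip53, against 835 and 978 with NC.

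The checkpoint kinases and their partners fell with sip53 as well. BUB1 fell by 0.64 (SE 0.09), TTK (MPS1) by 0.56 (SE 0.10), BUB1B (BUBR1) by 0.43 (SE 0.09) and MAD2L1 (MAD2), which binds and inhibits CDC20, by 0.27 (SE 0.10, adjusted p = 0.048). MAD2L1 lost its call in 7 of 15 settings, among them any that left out an NC or a sip53 library. TTK was at 16.9 and 16.1 FPKM with siGYS1 and 8.42 and 9.01 FPKM with sip53, against 14.6 and 13.7 FPKM with NC, without overlap between groups. Its siGYS1 rise (0.30, SE 0.09, adjusted p = 0.0499) held in 4 of 15 settings.

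Of the 8 spindle genes, 7 fell with sip53 (median -0.55) and 1 rose with siGYS1 (median 0.15). The 1 that rose is a share near the 10.4% of all tested genes called higher with siGYS1. HMMR, a spindle assembly protein first described as a hyaluronan receptor, showed the largest sip53 change among the 38. It was at 25.5 and 22.3 FPKM with siGYS1 and 4.74 and 5.25 FPKM with sip53, against 21.6 and 21.6 FPKM with NC. The other 4 libraries were all above 20 FPKM, and the siGYS1 libraries exceeded NC only slightly (0.11, SE 0.10, adjusted p = 0.453). With sip53 HMMR fell to 24.8% of NC (-2.01, SE 0.11, adjusted p = 9.77e-07), and 186 of the 13235 tested genes had a lower log2 fold change.

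ASPM, which organises the spindle poles and is mutated in microcephaly, was at 10.1 and 8.97 FPKM with siGYS1 and 4.36 and 4.15 FPKM with sip53, against 6.90 and 5.09 FPKM with NC. The groups did not overlap. ASPM rose with siGYS1 (0.86, SE 0.15, adjusted p = 0.0041); with sip53 it was at -0.31 (SE 0.15, adjusted p = 0.114) and passed in 8 of 15 settings.

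The motors fell with sip53 to a middling extent. KIF2C, the microtubule-depolymerising kinesin MCAK, was at -0.77 (SE 0.11), KIF11 (Eg5), which separates the spindle poles, at -0.66 (SE 0.10), and the chromokinesin KIF4A at -0.36 (SE 0.09). KIF4B, a near-identical copy of KIF4A, had 3 to 7 counts in a library. Their siGYS1 changes were 0.09, 0.22 and 0.11, and 0 of the 3 passed. KIF2C was at 35.6 and 35.7 FPKM with siGYS1 and 15.6 and 18.8 FPKM with sip53, against 33.9 and 32.8 FPKM with NC.

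Of the spindle assembly factors, DLGAP5 (HURP), which stabilises kinetochore fibres, fell by 0.78 with sip53 (SE 0.11), TPX2, the activator of AURKA, by 0.45 (SE 0.09), and NUSAP1, a microtubule bundling protein, by 0.43 (SE 0.09). DLGAP5 was at 35.2 and 35.3 FPKM with siGYS1 and 18.4 and 22.4 FPKM with sip53, against 36.2 and 38.1 FPKM with NC. TPX2 and NUSAP1 lost their sip53 calls without sip53 replicate 1.

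All 5 cytokinesis genes fell with sip53, and their median change of -0.35 was the smallest of the 6 roles, while 3 of them rose with siGYS1 (median 0.31). ANLN, the anillin scaffold of the contractile ring, was at 70.9 and 57.9 FPKM with siGYS1 and 30.0 and 32.6 FPKM with sip53, against 44.4 and 39.7 FPKM with NC. No groups overlapped. ANLN rose 1.61-fold with siGYS1 (0.69, SE 0.11, adjusted p = 0.00293) and fell with sip53 (-0.32, SE 0.11, adjusted p = 0.0322), a fall whose call ended without either sip53 library or without NC replicate 1.

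ECT2, the exchange factor that activates RhoA at the cleavage furrow, was at 80.8 and 69.1 FPKM with siGYS1 and 45.03 and 46.7 FPKM with sip53, against 62.7 and 56.7 FPKM with NC. KIF23, the motor subunit of centralspindlin, was at 33.7 and 31.7 FPKM with siGYS1 and 19.2 and 20.9 FPKM with sip53, against 27.5 and 27.4 FPKM with NC. In both genes the siGYS1 libraries were highest and the sip53 libraries lowest, without overlap. With siGYS1, ECT2 rose by 0.37 (SE 0.09, adjusted p = 0.024, called in 8 of 15 settings) and KIF23 by 0.31 (SE 0.09, adjusted p = 0.0361, called in 6). With sip53, ECT2 fell by 0.35 (SE 0.09, adjusted p = 0.0116) and KIF23 by 0.34 (SE 0.09, adjusted p = 0.00951).

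KIF20A (MKLP2), which brings the passenger complex to the midzone, fell by 0.72 with sip53 (SE 0.11) and PRC1, which bundles midzone microtubules, by 0.44 (SE 0.08). Neither passed with siGYS1 (0.23 and 0.07). PRC1 shares 3181 exon bases on the same strand with an unnamed gene row that held 229 to 549 counts, so its count may be split.

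Of the 3 genes that act at anaphase, 2 fell with sip53 and 0 passed with siGYS1. CDC20, the activator of the anaphase-promoting complex, was at 98.1 and 106 FPKM with siGYS1 and 52.0 and 60.1 FPKM with sip53, against 120.4 and 120.4 FPKM with NC. In log2 CPM it was the 1 member with both siGYS1 libraries below both NC libraries, and it fell with sip53 to 50.02% of NC (-0.999, SE 0.10, adjusted p = 3.56e-05). With siGYS1 it was at -0.18 (SE 0.10, adjusted p = 0.223). UBE2C, the ubiquitin-conjugating enzyme of that complex, fell by 0.54 with sip53 (SE 0.11, adjusted p = 0.00259) and was at 0.07 with siGYS1.

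PTTG1 encodes securin, the inhibitor of separase, and had the highest FPKM of the 38. It was at 444 and 581 FPKM with siGYS1 and 411 and 445 FPKM with sip53, against 549 and 636 FPKM with NC. The sip53 libraries were below NC, and siGYS1 overlapped both. PTTG1 did not pass with sip53 (-0.34, SE 0.13, adjusted p = 0.0543), where 10 of 15 settings called it, or with siGYS1 (-0.12, SE 0.13, adjusted p = 0.559).

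The chromosome and transcription factor genes had the largest median fall, -0.98, and all 4 fell with sip53. MKI67, the Ki-67 protein that coats mitotic chromosomes and marks cycling cells, was at 43.7 and 34.6 FPKM with siGYS1 and 9.42 and 11.6 FPKM with sip53, against 34.1 and 31.5 FPKM with NC. The sip53 libraries were far below the other 4, and siGYS1 lay above NC by less than the gap between its own libraries. MKI67 fell to 34.4% of NC with sip53 (-1.54, SE 0.14, adjusted p = 2.26e-05) and was at 0.34 with siGYS1 (SE 0.14, adjusted p = 0.104).

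TOP2A, the topoisomerase that untangles sister chromatids, was at 74.9 and 63.3 FPKM with siGYS1 and 23.4 and 25.7 FPKM with sip53, against 57.6 and 52.7 FPKM with NC. The groups were apart in the order siGYS1, NC, sip53. TOP2A rose with siGYS1 (0.38, SE 0.10, adjusted p = 0.0296, called in 5 of 15 settings) and fell with sip53 (-1.07, SE 0.10, adjusted p = 3.49e-05). BIRC5 (survivin), of the passenger complex, fell by 0.88 with sip53 (SE 0.12) and was at 0.13 with siGYS1.

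FOXM1, a transcription factor of late cell cycle genes, changed less with sip53 than the median member. It was at 32.8 and 34.1 FPKM with siGYS1 and 24.1 and 27.0 FPKM with sip53, against 36.4 and 34.7 FPKM with NC. It fell by 0.34 with sip53 (SE 0.11, adjusted p = 0.0295), a call that ended without either NC library or without sip53 replicate 1, and was at 0.01 with siGYS1. Its exons overlap those of ITFG2 on the other strand, which had 128 to 160.3 counts, and those of CCNA2 overlap EXOSC9, with 640 to 894 counts. KIF20A, KIF4A, CDC25C and ANLN also overlap genes on the other strand. For CDC25C, at 103 to 224 counts, FAM53C had 977 to 1157. For ANLN, KIAA0895 had 1260 and 1179 counts with siGYS1 and 1040 and 1046 with sip53, against 888 and 793 with NC. NUSAP1 shares 1787 exon bases on the same strand with an unnamed gene row of 4.09 to 11.8 counts. No source used here says whether the counting used strand.

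The 2 sip53 libraries did not fall equally. Replicate 1 was below replicate 2 for 35 of the 38 genes, with a median difference of -0.17 in log2 CPM, whereas the siGYS1 and NC pairs split 20 to 18 and 22 to 16. Without sip53 replicate 1 the count of falls was 24, as ANLN, AURKB, CCNB1, ECT2, FOXM1, KIF23, KIF4A, MAD2L1, NUSAP1 and TPX2 no longer passed, and without replicate 2 it was 30. Relative to the mean of the 6 libraries, the median of the 38 genes was 0.30 and 0.30 in the siGYS1 libraries and -0.52 and -0.40 in the sip53 libraries, against 0.14 and 0.15 in the NC libraries. Over all tested genes the same median was -0.0047 and -0.0062 in the sip53 libraries. The share of all tested genes with sip53 replicate 1 below replicate 2 was not counted.

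The siGYS1 changes were higher in the genes with a greater exon length, taken as the union of all annotated exons. This union can exceed the transcript length implied by count, FPKM and library total. For MAD2L1 it was 5748 bases, against 1754 to 1871 bases implied, while for CENPF it was 11690 bases, against 9998 to 10025. Across the 38 genes, the log2 fold change of siGYS1 against NC and the exon length had a Spearman rho of 0.63, against 0.24 over all 13187 tested genes with a length, as a description over genes that share the same libraries. For sip53 against NC it was 0.18. The 10 genes that rose had a median exon length of 6224.5 bases and the other 28 one of 3656.5 bases. Of the 10 longest members 6 rose, and of the 10 shortest 1. For each library, genes were taken as log2 CPM relative to their own mean over the 6 libraries, where that mean was above 2. In siGYS1 replicate 1 these values rose with exon length (rho 0.41 over 11172 genes), and in NC replicate 2 they fell with it (-0.29). In the other 4 libraries rho lay between -0.08 and 0.04.

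With offsets that take out this trend in each library, rho over the 38 genes was 0.38. Of the 38, 14 rose with siGYS1, all 10 of the earlier ones among them, and 36 fell with sip53. More of all genes were called as well. With siGYS1, 3416 of 13187 genes were called in either direction, against 2602 of 13235 without these offsets. With sip53, 7313 were called, against 6605. Without siGYS1 replicate 1 and NC replicate 2, a setting chosen after seeing the data, 1 siGYS1 library stands against 1 NC library, and the spread comes from the sip53 pair alone, so its values are given as a description. There rho was 0.17, and the log2 fold changes were 1.60 for CENPE, 0.53 for ASPM and 0.46 for ANLN. The part of exon length or transcript length in the siGYS1 rises was not tested.

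**Figure D4:**
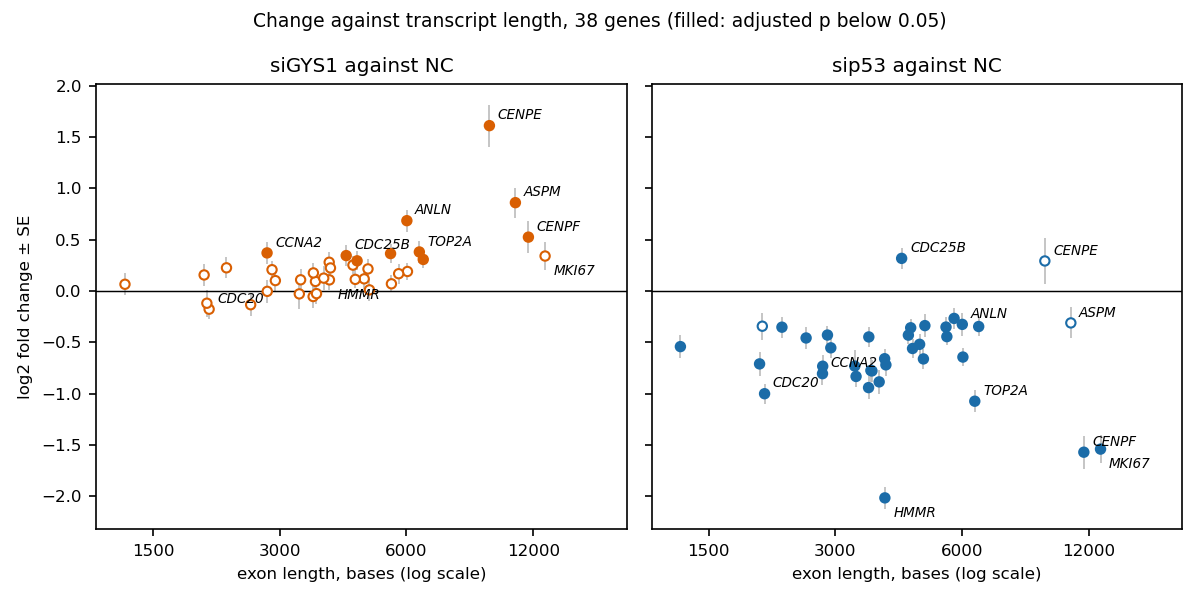
Log2 fold change with its standard error against the exon length of each of the 38 genes (log scale), for siGYS1 against NC and sip53 against NC, with filled points where the adjusted p is below 0.05. With siGYS1, CENPE, ASPM and CENPF, 3 of the 4 longest genes, rose and short genes such as CDC20 stood near or below 0, while with sip53 long genes lie at both ends, MKI67 and CENPF low and CENPE high.

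Other genes of the same machinery were described by lists that hold none of the 38, to be read beside the 26.5% of all tested genes called lower and 23.4% called higher with sip53, and the 9.24% lower and 10.4% higher with siGYS1. Of 18 further kinases and regulators of CDK1, 8 fell and 4 rose with sip53 (median -0.21), and 4 rose and 0 fell with siGYS1 (median 0.05). WEE1, the kinase that places the inhibitory phosphate on CDK1, was at 68.8 and 62.6 FPKM with siGYS1 and 34.0 and 33.4 FPKM with sip53, against 30.4 and 28.5 FPKM with NC. The siGYS1 libraries stood well above the other 4, and WEE1 rose with siGYS1 (1.21, SE 0.10, adjusted p = 8.71e-05) and with sip53 (0.32, SE 0.10, adjusted p = 0.0207). CDC25A, a phosphatase that opposes it, rose in both too (0.86 with siGYS1 and 0.75 with sip53). PBK, a mitotic kinase, fell with sip53 (-0.70).

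Of 33 other kinetochore, checkpoint and passenger genes, 25 fell and 0 rose with sip53 (median -0.58). With siGYS1, 1 rose and 3 fell (median 0.07). SPC25, a partner of NDC80 and NUF2 in their complex, was at 35.4 and 36.0 FPKM with siGYS1 and 13.7 and 15.6 FPKM with sip53, against 49.4 and 60.8 FPKM with NC. It fell in both knockdowns, with changes of -0.53 in siGYS1 (adjusted p = 0.0123) and -1.79 in sip53 (adjusted p = 4.62e-06). SKA2 (-1.41) and CENPU (-1.39), of the outer and inner kinetochore, fell with sip53 and did not pass with siGYS1 (0.18 and 0.13).

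Of 22 other spindle genes, 14 fell with sip53 and 0 rose, and 3 rose and 1 fell with siGYS1. KIF14, a kinesin that also acts in cytokinesis, fell by 1.57 with sip53. CEP55, an abscission and centrosome protein, rose with siGYS1 (0.60) and fell with sip53 (-1.28), and CKAP2 fell in both (-0.58 and -1.27). Of 11 other cytokinesis genes, 7 fell and 2 rose with sip53 and 3 rose with siGYS1. ARHGAP11A, a RhoA GTPase-activating protein, was at 28.4 and 20.3 FPKM with siGYS1 and 3.49 and 3.20 FPKM with sip53, against 22.5 and 19.2 FPKM with NC. Its log2 fold change with sip53 was below that of each of the 38 (-2.42, SE 0.13, adjusted p = 9.52e-07). CIT, the citron kinase, fell with sip53 (-1.02) and rose with siGYS1 (0.45), and KIF20B rose with siGYS1 (1.12) and did not pass with sip53 (-0.05).

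Of 17 condensin and cohesin genes, 11 fell with sip53 and 0 rose, and 4 rose and 1 fell with siGYS1. The condensin genes SMC4 (-1.03) and NCAPD2 (-0.82) and the cohesin gene RAD21 (-0.77) fell with sip53. Of 18 subunits and regulators of the anaphase-promoting complex, 3 fell and 1 rose with sip53, and 1 each way was called with siGYS1. Each count is a smaller share than the 26.5% lower and 23.4% higher with sip53, and the 9.24% lower and 10.4% higher with siGYS1, over all tested genes. The 3 that fell with sip53 were FBXO5 (EMI1), an inhibitor of the complex (-0.60), and the subunits CDC26 (-0.49) and ANAPC15 (-0.47).

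**Figure D5:**
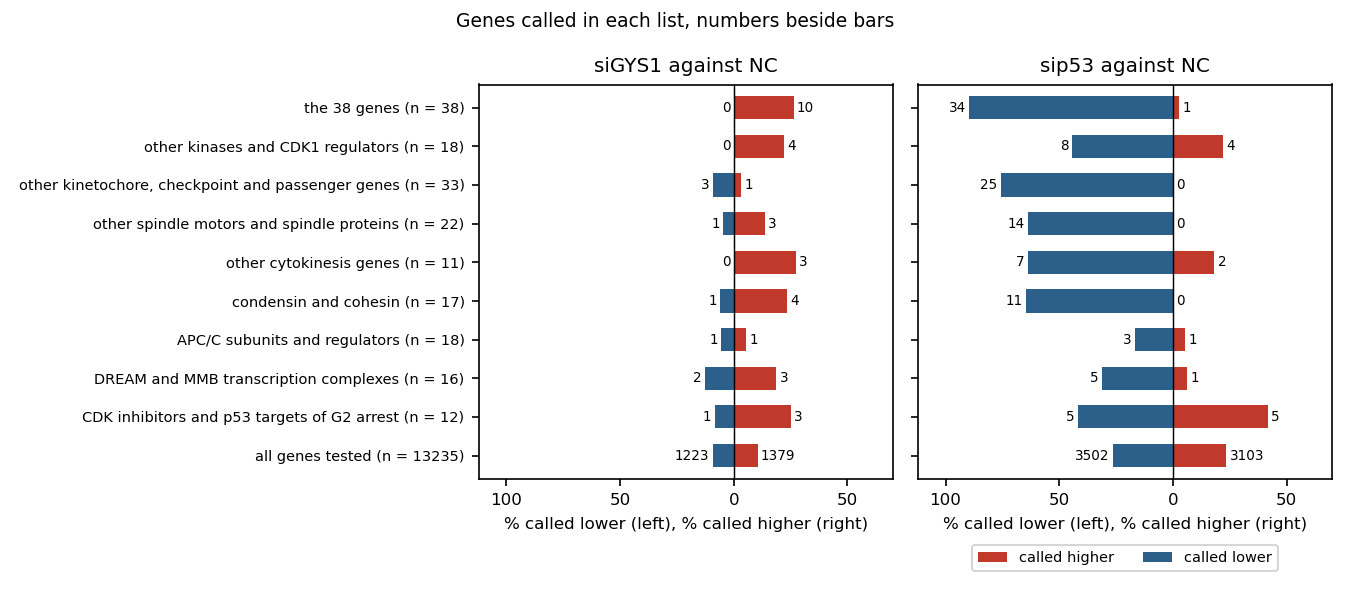
Percent of the genes of each list called lower (left bars) and higher (right bars) in siGYS1 against NC and sip53 against NC, with the number called beside each bar and all 13235 tested genes at the bottom. With sip53 the bars to the left exceed that of all genes for the 38 genes and for each list of further spindle, kinetochore and cytokinesis genes, but not for the subunits and regulators of the anaphase-promoting complex.

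Among 16 genes of the DREAM, MuvB and NF-Y complexes, 5 fell and 1 rose with sip53, beside 26.5% and 23.4% of all tested genes, and 3 rose and 2 fell with siGYS1, beside 10.4% and 9.24%. The 5 that fell with sip53 are a share near that of all genes. LIN52, a MuvB subunit, fell in both (-1.47 with siGYS1 and -1.11 with sip53). RBBP4, a histone-binding subunit of MuvB and of several chromatin complexes, was at 52.9 and 47.1 FPKM with siGYS1 and 110.1 and 115 FPKM with sip53, against 129 and 126 FPKM with NC. It fell with siGYS1 (-1.33, SE 0.09, adjusted p = 4.31e-05) and did not pass with sip53 (-0.22, adjusted p = 0.0549). RBL1 (p107) rose with siGYS1 (0.48) and fell with sip53 (-0.89). LIN54, which contacts the CHR, did not pass with siGYS1 (0.31, adjusted p = 0.059) or sip53 (0.22, adjusted p = 0.1), and MYBL2 (B-MYB) rose with siGYS1 (0.49, adjusted p = 0.0204) and not with sip53 (0.09, adjusted p = 0.576). These 2 were chosen after their values were seen.

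Of 12 tested CDK inhibitors and G2 arrest genes, 5 rose and 5 fell with sip53, beside 23.4% and 26.5% of all tested genes, and 3 rose and 1 fell with siGYS1, beside 10.4% and 9.24%. CDKN2A, which encodes p16 and ARF, rose with sip53, at 3.85 and 4.24 FPKM with siGYS1 and 20.1 and 18.9 FPKM with sip53, against 4.79 and 5.80 FPKM with NC (2.01, SE 0.15, adjusted p = 7.36e-06). CDKN2C (p18) was at 23.7 and 29.3 FPKM with siGYS1 and 9.39 and 11.9 FPKM with sip53, against 48.1 and 57.2 FPKM with NC. It fell in both knockdowns (-0.74 with siGYS1 and -2.12 with sip53). BTG2, an antiproliferative p53 target, rose with siGYS1 (1.32) and with sip53 (0.36). CDKN1A, of the same list, fell with sip53 (-0.47, adjusted p = 0.00105) and rose with siGYS1 (0.30, adjusted p = 0.0299). SFN fell with sip53 (-0.35, adjusted p = 0.0291) and did not pass with siGYS1 (-0.22). GADD45A rose with siGYS1 (0.50) and with sip53 (0.57). CDKN1A, SFN and GADD45A were chosen after their values were seen.

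Other lists moved with the sip53 fall, and their part in it was not tested. The 6 tested replication-dependent histone genes, whose mRNAs normally lack a poly(A) tail, went the other way: 5 rose with sip53 (median 1.32), and 1 fell with siGYS1. Over the 10 histone genes in the table, FPKM summed to 58.2 to 67.8 with siGYS1 and 110.1 to 129 with sip53, against 69.3 to 82.7 with NC. Mitochondrial counts took 5.07% and 5.47% of the siGYS1 libraries and 4.81% and 5.002% of the sip53 libraries, against 5.54% and 6.0% of the NC libraries, without overlap. Of the 13 mitochondrial mRNAs, 4 rose and 3 fell with sip53, shares near the 23.4% and 26.5% of all tested genes. Fibroblast markers summed to 145 to 155 FPKM with siGYS1 and 92.3 to 93.0 FPKM with sip53, against 177 to 178 FPKM with NC, nearly all of it COL1A2 and COL1A1. DCN was at 0.24 and 0.33 FPKM with siGYS1 and 4.47 and 3.12 FPKM with sip53, against 0.31 and 6.97 FPKM with NC. The NC libraries thus differed in its FPKM. In the fit on counts, DCN rose with sip53 against NC (4.23, SE 0.40, adjusted p = 2.88e-05). With siGYS1 it did not pass (0.57, SE 0.66, adjusted p = 0.569). The FPKM of NC replicate 2 and the sip53 fold change do not match, and the cause was not tested. The 5 leukocyte markers in the table summed to 5.29 to 5.72 FPKM with siGYS1 and 6.82 to 7.58 FPKM with sip53, against 5.18 to 5.20 FPKM with NC, most of it CD68. The 3 endothelial markers in the table, of which VWF was at or near 0 in every library, summed to 0.31 to 0.42 FPKM with siGYS1 and 0.93 to 1.53 FPKM with sip53, against 0.35 to 0.48 FPKM with NC.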

How the data were processed

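Gene expression was measured by RNA-seq in 6 TOV21G libraries, 2 each of siGYS1, sip53 and NC. The authors deposited 1 table of 16910 genes; per the file headers it gives each library's FPKM, TPM, read counts and normalized counts. The read counts the authors deposited are expected counts, since 16.8% to 18.1% of the values per library are not whole (tolerance 1e-09), and were rounded for the fits. The deposited FPKM give the levels. The deposited TPM, the authors' normalized count signal and the group means were not used. The submitters' processing notes list tools without roles and the mouse build mm10, although 16830 of the identifiers are in human GENCODE 29 (GRCh38); no source used here names the aligner or counter that made the table.

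The fit used edgeR 4.0.16 under R 4.3.3 with filterByExpr (minimum count 10, which removed 3675 genes), TMM factors, glmQLFit and glmQLFTest over all 6 libraries with group as the only term (3 residual degrees of freedom). Adjusted p-values are Benjamini-Hochberg values over 13235 genes, SE is the absolute log2 fold change over the square root of F, and a call needs an adjusted p below 0.05. The procedure was tested on simulated data. The members, gene lists and tests were chosen with earlier results of these data known. All 38 members are described. Of each further list, up to 3 genes with the largest change among those called against NC are named. A few more are marked as chosen after their values were seen. The transcript that sip53 targets is not reported here. Exon lengths are union exons of GENCODE 29, and promoter windows come from RefSeq (GRCh38.p14). Replicate numbers are shared between groups but nothing says that they pair the libraries, so the fit has no block. Alternatives were DESeq2 size factors, total counts, no filter, DESeq2 1.42.0, limma 3.58.1 on log2(FPKM + 1) or log2(FPKM + 0.1), only the 2 groups compared, the replicate block, length-corrected offsets and leaving out each library.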

Additional observations from a re-analysis of the deposited data

How the results depend on the processing

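Leaving out each library in turn gave ranges for every count. For siGYS1 against NC, genes called ran from 926 to 4260 (2602 with all libraries), members up from 3 to 13, members down from 0 to 1 and the members' median from 0.16 to 0.20. For sip53 against NC they were 4271 to 7621 (6605), 0 to 1 up, 24 to 36 down and -0.65 to -0.48, and for siGYS1 against sip53 3416 to 6337 (5745), 32 to 37 up, 0 down and 0.71 to 0.90. The count of 10 members up with siGYS1 was 4 with total counts, 5 with no filter on low counts and 3 with limma at either pseudocount. It was also 3 with only the 2 groups compared. Over all genes, 2619 were called with total counts, 1968 with no filter, and 1803 and 1788 with limma at pseudocounts of 1 and 0.1. Only the 2 groups compared called 1577 genes. The 1 member up with sip53 (CDC25B) was 0 with total counts and with limma at either pseudocount, and limma on log2(FPKM + 0.1) gave a sip53 median of -0.69. Replicate numbers are shared, but same-numbered deviations correlated at 0.28 (siGYS1 and NC), -0.02 (sip53 and NC) and 0.13 (siGYS1 and sip53); with the replicate block, 4662, 7890 and 7202 genes were called, and 17 members rose with siGYS1, 36 fell with sip53 and 37 were higher in siGYS1 than in sip53. Members near 0 changed sign while called in neither setting. For siGYS1 against NC, CCNB2 (-0.0023 with all libraries) was 0.0123 with DESeq2 size factors, 0.0124 with no filter, 0.0139 with DESeq2 and 0.0744 length-corrected, and FOXM1 (0.0121) was -0.0423 with total counts and -0.085 and -0.0872 in the limma fits. UBE2C was -0.0088 and -0.0089 in the limma fits, and CDC25C was 0.0314 and DLGAP5 0.0238 length-corrected. Leaving out 1 library, CCNB1 ran from -0.208 to -0.0454, CCNB2 from -0.101 to 0.105, CDC25C from -0.0803 to 0.0287, NDC80 from -0.178 to 0.0812, DLGAP5 from -0.0555 to 0.008, UBE2C from -0.0369 to 0.179, PTTG1 from -0.308 (called, adjusted p = 0.0462) to 0.0632 and FOXM1 from -0.0155 to 0.043, and CDC25B in siGYS1 against sip53 from -0.0784 to 0.142. A setting chosen after seeing the data left out siGYS1 replicate 1 and NC replicate 2, which leaves 1 library in each of these groups. There CCNB1 was 0.0103, CCNB2 0.189, DLGAP5 0.0234, PTTG1 0.171 and UBE2C 0.2435. Fits with 1 library in a group assume that it varies like the others. The cause of these shifts was not tested. CENPE, at 84 to 344 counts, is the least precisely measured member.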
